A study of Mus musculus with 12 samples.

Results

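The genes described here were the 8 heavy chain constant genes, which give each antibody class its name (Ighm, Ighd, Ighg3, Ighg1, Ighg2b, Ighg2c, Ighe and Igha), and Jchain, which encodes the joining chain of polymeric antibodies. They were chosen by gene symbol and made up 9 of the 55414 genes in a table of whole-lung RNA from 12 mice. All 12 mice had been instilled with lipopolysaccharide (LPS), a bacterial surface molecule that sets off acute lung injury, and their lungs were taken on day 4. In the 6 IL-10 B-KO mice, bred by crossing Il10 flox/flox mice with mb1-Cre mice, Cre deletes the floxed Il10 gene in the B cell lineage, and the 6 IL-10 B-WT mice were their controls, so that the comparison asked how loss of Il10 from B cells altered the injured lung. The mice had a C57BL/6J background and were matched for age and sex; their age, and whether the IL-10 B-WT mice carried floxed alleles or Cre, were not given in the sources used here. Mb1 is another name of Cd79a, a signalling subunit of the B cell receptor, and in the mb1-Cre line Cre is placed in the Cd79a locus itself. The number of Cre copies per mouse was not given either, and without these details an effect of the Cre allele and an effect of Il10 loss cannot be told apart in these lungs. Bronchoalveolar fluid had been collected and the lungs perfused before they were excised.

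The class of an antibody is set by the constant gene that is joined to its variable region. Naive B cells splice the same long primary transcript into Ighm (IgM) or Ighd (IgD), and class switch recombination later deletes the DNA in between, so that a downstream constant gene for IgG, IgE or IgA is used in place of Ighm. Plasma cells make the secreted form in very large amounts, and J chain links IgA or IgM units into polymers that are carried across airway epithelium, where IgA is the main antibody of the secretions.

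Values were TPM, a measure of transcript abundance that corrects for the length of each gene and brings all libraries to a shared total, so that levels of different genes can be compared within a lung but the number of reads behind a value is unknown. The 12 libraries summed to between 991646 and 994430 TPM. Differential expression was calculated with limma on log2(TPM + 1) over the 15148 genes that reached 1 TPM in 6 or more libraries. A gene was called where its Benjamini-Hochberg adjusted p was 0.05 or lower and its log2 fold change was 1 or more in size. Fold changes are IL-10 B-KO relative to IL-10 B-WT on this log2(TPM + 1) scale, which understates the change of genes with low TPM. For each of the 9 genes the difference in mean log2(TPM + 1) was in addition tested two-sided by exact permutation of the lungs, where the smallest p that 6 lungs per genotype can give is 0.00216. The targeted gene, Il10, had values of 0.42, 0.88, 0.62, 0.05, 0 and 0.16 TPM for IL-10 B-WT replicates 1 to 6, and IL-10 B-KO replicates 1 to 6 had 0.49, 0, 0.3, 0.15, 0.58 and 0.17 TPM. Its values overlapped (exact permutation test, p = 0.745, n = 6 per genotype), so that in whole lung its transcript neither separated the genotypes nor checked the labels. After LPS, the paper reports less IL-10 in IL-10 B-KO than in IL-10 B-WT mice. Its measures were protein in bronchoalveolar fluid, and both mRNA and protein in lung. The lower Il10 mRNA that the paper reports for lung was thus not seen in the values here, and the reason was not tested. The paper also reports the efficiency of the knockout from Il10 mRNA of sorted lung B cells. Of 10 housekeeping genes, 0 were at 0 TPM in any library.

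Single lungs stood apart. IL-10 B-WT replicate 2 had the highest level of all 9 genes, with 27900 TPM summed over the 8 heavy constant genes, or 2.81% of all its TPM, while the remaining IL-10 B-WT lungs had between 533.4 and 4229 TPM. IL-10 B-WT replicate 1 had the lowest sum of its group. Among the IL-10 B-KO lungs the sums were 59.0, 122.9, 12.7, 29.8, 16.8 and 100.1 TPM in replicates 1 to 6, so that replicates 2 and 6 were the highest. The sums of the 2 genotypes did not overlap.

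Of the 9 genes, 7 passed the filter on low TPM, 4 were called, each of them lower in IL-10 B-KO than in IL-10 B-WT, and 0 were called higher. Over all genes tested, 0.495% were called in either direction and 0.469% were called lower. Of the 71 genes called lower, 39 were immunoglobulin genes or Jchain. How many such genes were tested was not counted, so that their share called is not known. They too could pass the filter through the IL-10 B-WT lungs alone, and the 39 are a description only. The number called over all genes turned on single libraries. Over all 12 lungs 75 genes were called, 4 of them higher, and with a library left out 15 to 576. The 576, of which 344 were higher, came without IL-10 B-WT replicate 1. The 4 called were Igha, Jchain, Ighg2b and Ighg2c. Ighm, Ighd and Ighg1 were tested and not called, and Ighg3 and Ighe were below the filter. In the same 4 genes the highest IL-10 B-KO lung lay under the lowest IL-10 B-WT lung, as it did for 0.924% of all genes tested. Because the filter could be passed by high values in the IL-10 B-WT lungs alone, the number that passed is a description and supports no change: for Ighg2c, for example, all 6 IL-10 B-WT lungs and 1 IL-10 B-KO lung reached 1 TPM. In whole lung, fewer B lineage cells and less RNA per cell cannot be told apart.

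**Figure D1:**
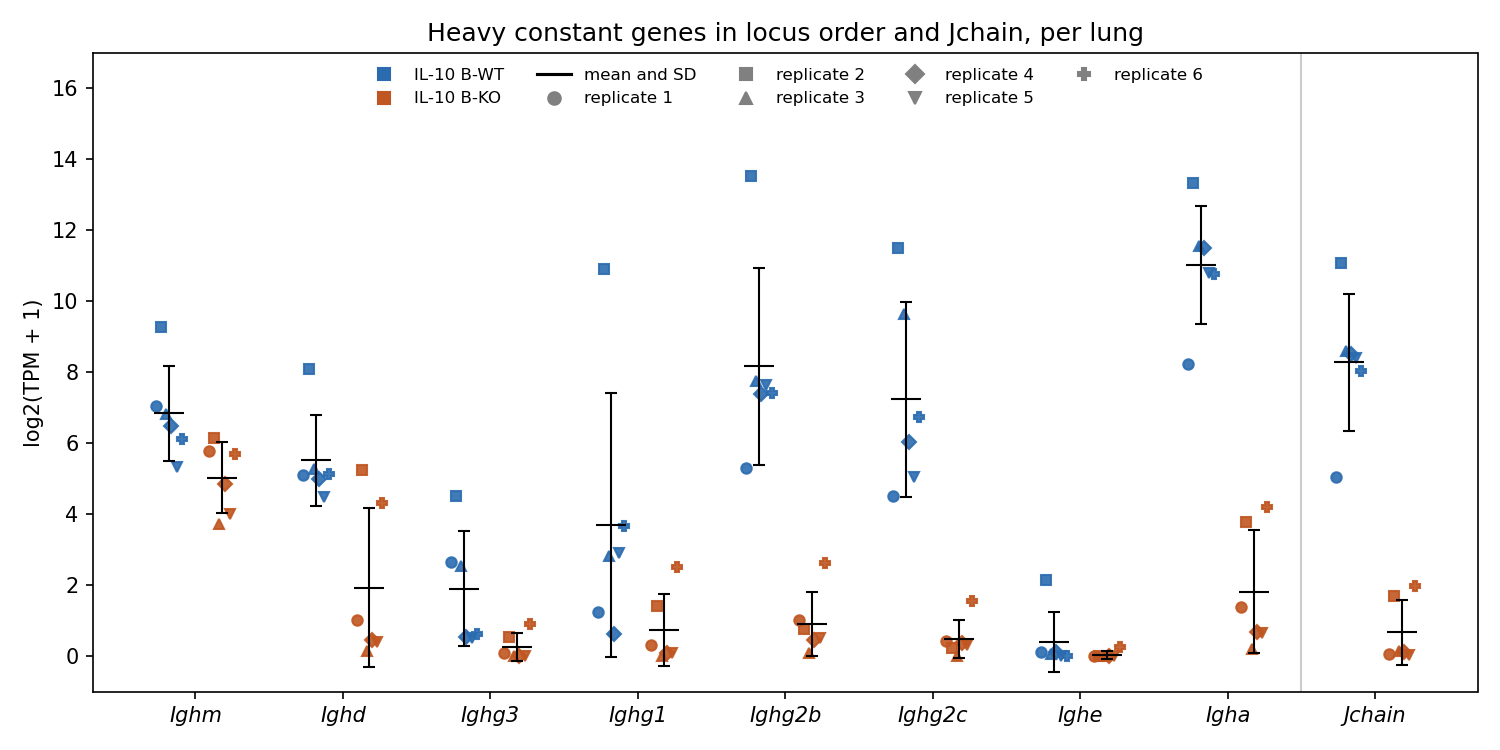
Level of each gene in each lung as log2(TPM + 1) on the vertical axis, with the 8 heavy constant genes in their order along the locus and Jchain at the right. Each symbol is 1 lung (blue, IL-10 B-WT; orange, IL-10 B-KO; the shape gives the replicate), and bars are the mean and SD of 6 lungs; the genotypes are apart for Ighg2b, Ighg2c, Igha and Jchain and overlap for the other genes.

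Igha, the constant gene of IgA, was the most abundant of the 9 genes in IL-10 B-WT lungs by its median. Its level was 299.7 TPM at the lowest, 2333 TPM at the median and 10354 TPM at the highest of the 6 IL-10 B-WT lungs, against 0.15, 1.11 and 17.4 TPM in the IL-10 B-KO lungs. The lowest IL-10 B-WT lung was replicate 1 and the highest replicate 2, while the highest IL-10 B-KO lungs were replicates 6 and 2, still far below the lowest IL-10 B-WT lung. The log2 fold change was -9.21 (standard error, SE, 0.85; limma adjusted p = 3.97e-04), the largest fall among the 15148 genes tested, and the exact permutation p was 0.00216, the smallest possible. Without IL-10 B-WT replicate 2 the log2 fold change was -8.75 (limma adjusted p = 4.34e-04).

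Jchain (chr5:88519809-88527891, minus strand, GRCm38) lies on another chromosome than the heavy chain locus. It was at 32.0 TPM at the lowest, 352.4 TPM at the median and 2170.1 TPM at the highest in IL-10 B-WT lungs and at 0.03, 0.1 and 2.96 TPM among IL-10 B-KO lungs. The same lungs as for Igha were lowest and highest, replicates 1 and 2 in IL-10 B-WT and replicates 6 and 2 at the top in IL-10 B-KO, and the groups did not overlap. Its log2 fold change was -7.60 (SE 0.76, limma adjusted p = 6.62e-04), which ranked 4 among the falls of all genes tested, with an exact permutation p of 0.00216. Without IL-10 B-WT replicate 2 it was -7.04 (limma adjusted p = 3.85e-04). Within a lung, the level of Igha was 4.77 to 9.36 times that of Jchain in IL-10 B-WT lungs. In IL-10 B-KO lungs this ratio ran from 1.36 to 32.2, but Jchain was at 0.11 TPM or less in 4 of those 6 lungs, so that their ratios rest on values near 0.

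The 4 IgG genes encode the subclasses of IgG, which dominates in serum. Ighg2b was the most abundant of them by its median, at 38.4 TPM at the lowest, 184.2 TPM at the median and 11796 TPM at the highest in IL-10 B-WT lungs and 0.07, 0.57 and 5.21 TPM among IL-10 B-KO lungs. Its IL-10 B-WT values lay within 167.3 and 217.0 TPM in 4 lungs, with replicate 1 below and replicate 2 far above, and the groups did not overlap. The log2 fold change was -7.26 (SE 1.03, limma adjusted p = 0.0115, exact permutation p = 0.00216), and without IL-10 B-WT replicate 2 it was -6.19 (limma adjusted p = 1.84e-04). Ighg2c, the counterpart of IgG2a in this strain, was at 21.9, 85.1 and 2896 TPM (lowest, median and highest) in IL-10 B-WT lungs and at 0, 0.285 and 1.95 TPM among IL-10 B-KO lungs. Here a second IL-10 B-WT lung was high, replicate 3 with 797.0 TPM, and the groups again did not overlap. The log2 fold change was -6.76 (SE 0.99, limma adjusted p = 0.0124, exact permutation p = 0.00216), and -5.91 without IL-10 B-WT replicate 2 (limma adjusted p = 0.00335). With no filter on low TPM, where p-values are adjusted over 31629 genes, Ighg2b and Ighg2c were no longer called (limma adjusted p = 0.0628 and 0.0687).

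Ighg1 and Ighg3, the other IgG subclasses, were low in most lungs. Ighg1 was at 0.54 TPM at the lowest, 6.30 TPM at the median and 1933 TPM at the highest in IL-10 B-WT lungs, against 0, 0.16 and 4.68 TPM among IL-10 B-KO lungs. Its high mean in IL-10 B-WT lungs came from replicate 2, since the next highest lung had 11.8 TPM, and the groups overlapped. The log2 fold change of -2.96 (SE 1.36) did not pass (limma adjusted p = 0.391, exact permutation p = 0.0260), and it was -1.52 without that lung. Ighg3 was at 0.44, 2.71 and 21.9 TPM among IL-10 B-WT lungs and at 0, 0.035 and 0.89 TPM among IL-10 B-KO lungs. Replicates 1, 2 and 3 were the high IL-10 B-WT lungs, 3 IL-10 B-KO lungs were listed at 0, and the groups overlapped. The difference in mean log2(TPM + 1) was -1.65 (exact permutation p = 0.0195, unadjusted, n = 6 per genotype), and without any of IL-10 B-KO replicates 1, 3, 4 or 5 the exact permutation p was 0.0671 to 0.0693.

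Ighe, the constant gene of IgE, was listed at 0.1, 3.41, 0.05, 0.1, 0 and 0 TPM for IL-10 B-WT replicates 1 to 6. In IL-10 B-KO lungs it was listed at 0 in 5 lungs and at 0.21 TPM in replicate 6. IL-10 B-WT replicate 2 was thus the single lung above 1 TPM. The difference in mean log2(TPM + 1) was -0.37 and did not pass the exact permutation test (p = 0.424, n = 6 per genotype). Without IL-10 B-WT replicate 2 it was -0.02 (exact permutation p = 0.848).

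Ighm, the constant gene of IgM and the first of the locus, was the most abundant of the 9 genes in each IL-10 B-KO lung. It was at 39.1 TPM at the lowest, 100.9 TPM at the median and 622.3 TPM at the highest in IL-10 B-WT lungs and at 12.3, 39.5 and 69.5 TPM among IL-10 B-KO lungs. The groups overlapped, with IL-10 B-KO replicates 3, 4 and 5, or 3 of 6, lower than all IL-10 B-WT lungs. The medians differed 2.55-fold, the log2 fold change was -1.81 (SE 0.60), and it did not pass over all genes (limma adjusted p = 0.285, exact permutation p = 0.0216, unadjusted). Without IL-10 B-WT replicate 2 the log2 fold change was -1.32 (limma adjusted p = 0.465). Of all genes tested, 110 had a more negative log2 fold change than Ighm.

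Ighd, spliced from the same primary transcript as Ighm in mature B cells, was at 21.6 TPM at the lowest, 34.0 TPM at the median and 273.2 TPM at the highest in IL-10 B-WT lungs. In IL-10 B-KO replicates 1 to 6 it was at 1.05, 37.5, 0.12, 0.37, 0.32 and 18.9 TPM. Replicate 2 lay within the IL-10 B-WT range and replicate 6 just under it, while the 4 other IL-10 B-KO lungs were near 1 TPM or below, so that 5 of 6 were lower than every IL-10 B-WT lung. The log2 fold change was -3.58 (SE 0.92, limma adjusted p = 0.130, exact permutation p = 0.0130), not called over all 12 lungs. Ighd was called without IL-10 B-KO replicate 2 (log2 fold change -4.25, limma adjusted p = 0.0298), with array quality weights (limma adjusted p = 0.0333) and with the replicate number as a block (limma adjusted p = 0.0391), although the numbers are not stated to pair mice.

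The level of Ighm was 1.81 to 3.92 times that of Ighd in the 6 IL-10 B-WT lungs. In IL-10 B-KO replicates 1 to 6 it was 52.0, 1.86, 102.8, 75.9, 47.2 and 2.69 times that of Ighd. Replicates 2 and 6 were thus within the IL-10 B-WT range and replicates 1, 3, 4 and 5 far above it. The light chain constant genes, whose products pair with heavy chains, were highest in the same IL-10 B-KO lungs as Ighd. Summed over Igkc, Iglc1, Iglc2 and Iglc3 they were at 774.8 TPM or more in IL-10 B-WT lungs and at 2.67, 284.6, 2.75, 2.09, 1.46 and 186.2 TPM for IL-10 B-KO replicates 1 to 6. Relative to the summed heavy constant genes, light chains were at 0.975 to 1.69 in IL-10 B-WT lungs, and at 0.0453, 2.32, 0.217, 0.0701, 0.0871 and 1.86 across IL-10 B-KO replicates 1 to 6. The heavy chain variable segments, by the same measure, were at 0.545 to 1.29 in IL-10 B-WT lungs and at 0.0409, 0.457, 0.143, 0.108, 0.109 and 0.716 across IL-10 B-KO replicates 1 to 6. Ighm in IL-10 B-KO replicates 1, 3, 4 and 5 thus came with little Ighd, light chain or variable segment RNA.

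B cell genes were read beside these values, and they differed among themselves. Cd79a was at 0, 4.35, 0, 0.05, 0 and 5.73 TPM for IL-10 B-KO replicates 1 to 6, while IL-10 B-WT lungs had 15.3 TPM or more (log2 fold change -4.16, limma adjusted p = 0.0222). Because mb1-Cre is placed in this gene, an effect of the Cre allele on its level and a lower number of B cells cannot be told apart. Pax5, the transcription factor that defines the B lineage, was at 0.01, 7.94, 0.05, 0, 0.02 and 3.29 TPM in the same order of IL-10 B-KO lungs. Where Pax5 was at 0.05 TPM or less, Ighm was at 12.3 TPM or more. Ms4a1 was at 0.08 to 0.13 TPM in these lungs. Cd79b, the partner chain of Cd79a, was at 6.82, 34.0, 4.5, 3.23, 3.98 and 21.3 TPM, again for IL-10 B-KO replicates 1 to 6, so that replicates 1, 3, 4 and 5 were below the lowest IL-10 B-WT lung (13.1 TPM) but not near 0. Its log2 fold change was -1.90 (limma adjusted p = 0.304). Cd22 was likewise at 3.31, 10.6, 3.33, 1.84, 3.13 and 6.70 TPM, against 3.43 TPM in the lowest IL-10 B-WT lung. Blnk, an adaptor of B cell receptor signalling, was at 4.76 to 8.23 TPM among the 6 IL-10 B-KO lungs, Blk at 1.13 to 13.5 TPM and Fcer2a at 4.74 to 14.8 TPM, each overlapping the IL-10 B-WT lungs. Which cells carried this Ighm RNA was not tested.

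**Figure D2:**
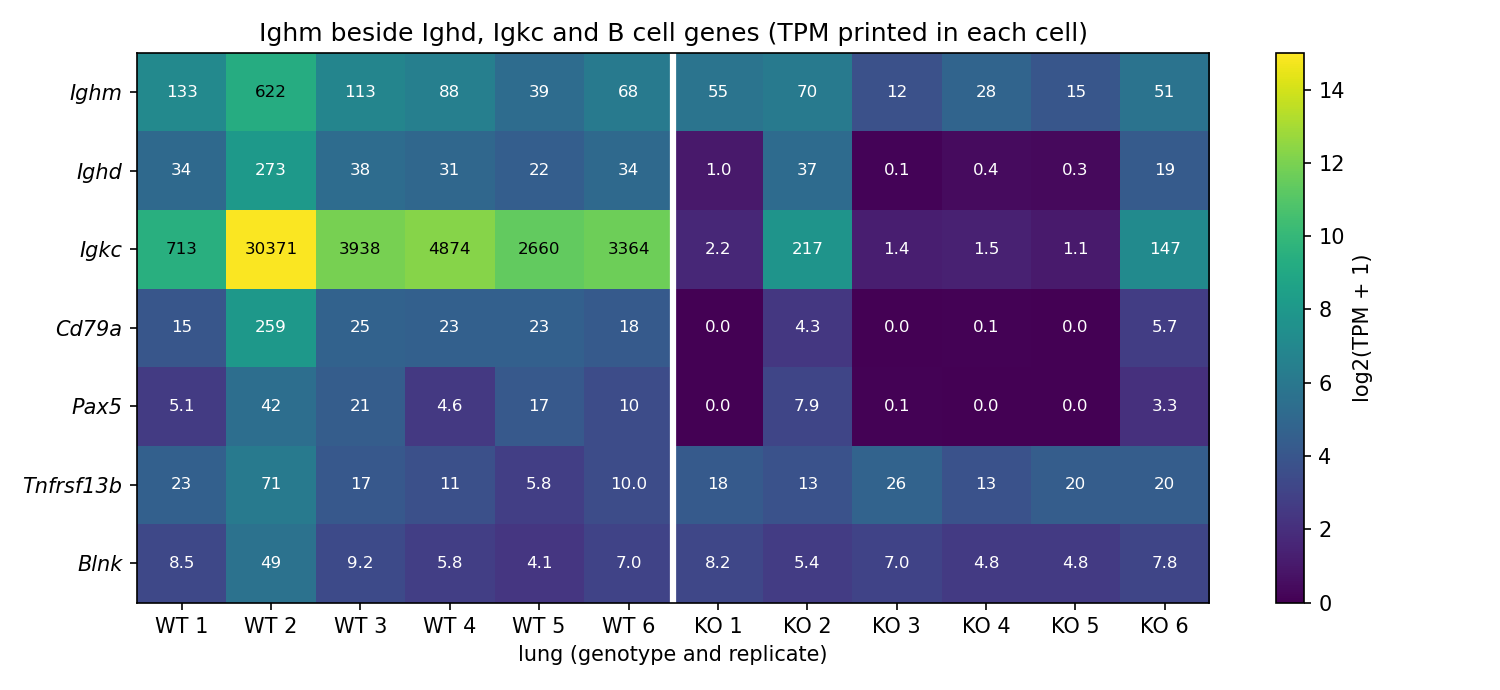
Heat map of 7 genes (rows) in the 12 lungs (columns, named by genotype and replicate), with colour as log2(TPM + 1) and the TPM printed in each cell; the genes were picked after their values were seen. In IL-10 B-KO replicates 1, 3, 4 and 5, Ighm stays at 12.3 to 54.6 TPM while Pax5 is at 0.05 TPM or less, and the values of Tnfrsf13b and Blnk overlap between the genotypes.

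By their medians, the levels in IL-10 B-WT lungs were ordered Igha, Jchain, Ighg2b, Ighm, Ighg2c, Ighd, Ighg1, Ighg3 and Ighe. Igha was above Jchain in 6 of 6 lungs and Ighg3 above Ighe in 6 of 6. Ighm and Ighg2c did not differ beyond their spread, since each was the higher in 3 of 6 lungs, and Jchain was above Ighg2b in 4 of 6 lungs. The other neighbours kept their order in 5 of 6 lungs. In IL-10 B-KO lungs Ighm came first, above Igha in 6 of 6 lungs, and the medians of the other genes were 1.11 TPM or less, where their order rests on values near 0.

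The shares of the 8 heavy constant genes in their summed TPM give the class composition of each lung. Igha took 56.2%, 37.1%, 72.2%, 89.1%, 85.7% and 81.7% in IL-10 B-WT replicates 1 to 6. Igha was thus the largest share in 5 of 6 lungs, the exception being replicate 2, where Ighg2b took 42.3% and the 4 IgG genes together 59.7%. In the other IL-10 B-WT lungs the IgG genes together took 7.20% to 24.2%. Ighm took 24.9% in replicate 1 and between 1.88% and 3.20% in the remaining IL-10 B-WT lungs, so that the lung with the least antibody RNA of its group had the largest share of IgM. All classes downstream of Ighd together took 68.8% in replicate 1 and 95.2% to 97.1% in the others.

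In IL-10 B-KO replicates 1 to 6, Ighm took 92.6%, 56.6%, 97.3%, 94.2%, 90.1% and 50.8% of the sum. It was the largest share in each, and in replicates 2 and 6 Ighd added 30.5% and 18.9%. The downstream classes together took 1.74% to 30.3%, the highest in replicate 6, and the ranges of the 2 genotypes did not overlap. These shares rest on sums of 12.7 to 122.9 TPM.

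**Figure D3:**
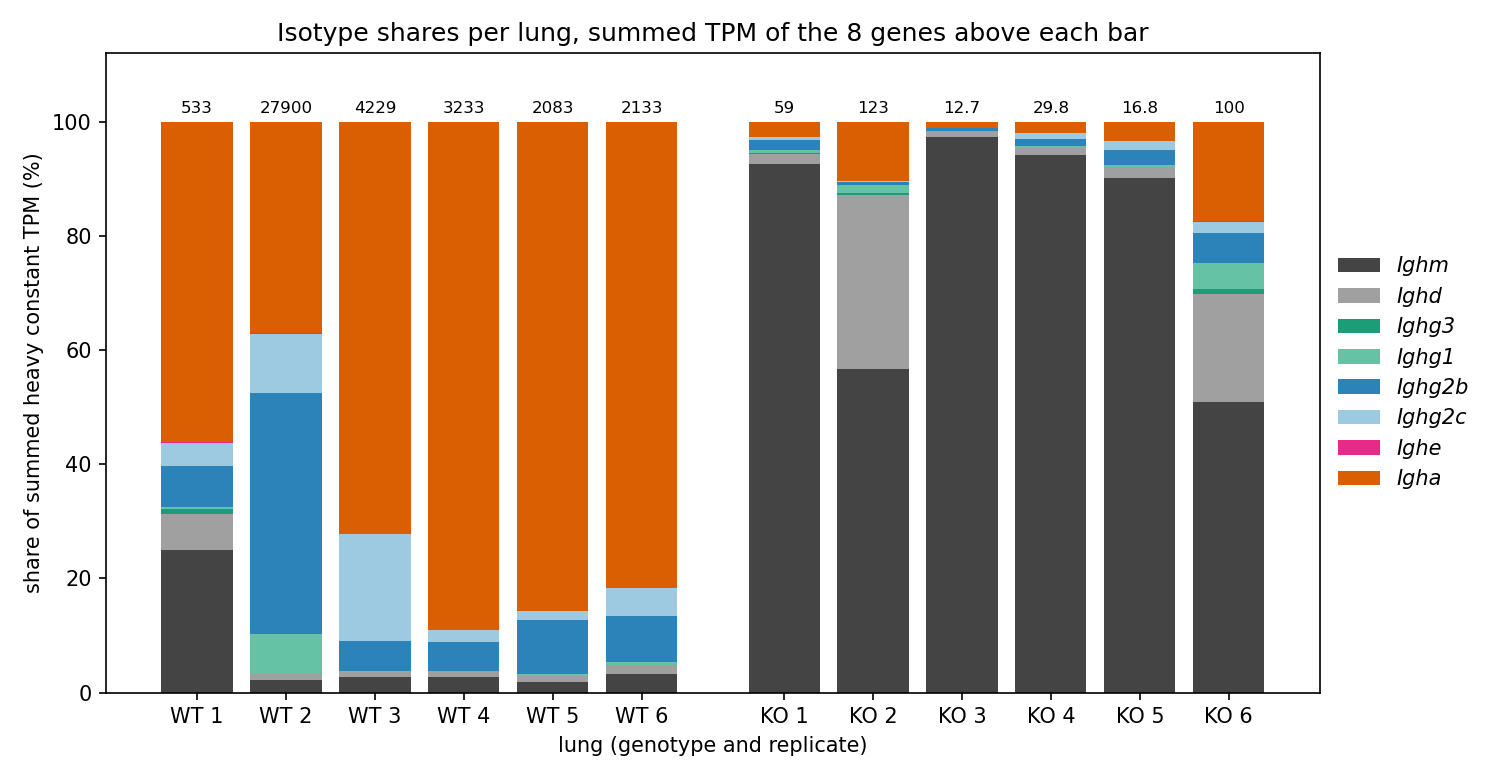
Stacked bars of the share (%, vertical axis) of each heavy constant gene in the summed TPM of the 8 genes, for each of the 12 lungs, with the summed TPM printed above each bar. Igha fills most of the bar in 5 IL-10 B-WT lungs, Ighg2b is the largest share in IL-10 B-WT replicate 2 (42.3%), and Ighm is the largest share in each IL-10 B-KO lung (50.8% to 97.3%).

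Whether Igha and Ighm differed between the genotypes by unequal amounts was tested in a single contrast, the log2 ratio of Igha to Ighm in each lung. The ratio was 1.17 at the lowest and 5.48 at the highest in IL-10 B-WT lungs and -4.41 and -1.50 in IL-10 B-KO lungs. All 6 IL-10 B-WT lungs had more Igha than Ighm and all 6 IL-10 B-KO lungs the reverse. The mean was 4.18 ± 1.55 (SD, n = 6) for IL-10 B-WT lungs and -3.22 ± 1.11 (SD, n = 6) for IL-10 B-KO lungs, a difference of -7.40 (exact permutation p = 0.00216, the smallest possible). Igha was close to the floor set by the pseudocount in 4 IL-10 B-KO lungs, which limits the size of this difference.

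The 8 heavy constant genes lie within 167.9 kb on chr12:113254830-113422730 (GRCm38, minus strand), in the order Ighm, Ighd, Ighg3, Ighg1, Ighg2b, Ighg2c, Ighe and Igha from 5′ to 3′. Ighm lies at chr12:113418558-113422730, Ighd at chr12:113406604-113416324, Ighg2b at chr12:113302965-113307933, Ighg2c at chr12:113285325-113288932 and Igha at chr12:113254830-113260236. In this order the log2 fold changes were -1.81 for Ighm and -3.58 for Ighd, which were not called, and -7.26 for Ighg2b, -6.76 for Ighg2c and -9.21 for Igha, which were; no test of position was run. For Ighg3, Ighg1 and Ighe, which had few TPM in most lungs, the log2(TPM + 1) scale limits the difference. With a pseudocount of 0.1 in place of 1, the difference in mean log2 was -3.37 for Ighg3, -4.45 for Ighg1 and -1.01 for Ighe, beside -4.63 for Ighd, and Ighd and Ighg1 were again not called. No other annotated gene overlapped any of the 9.

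**Figure D4:**
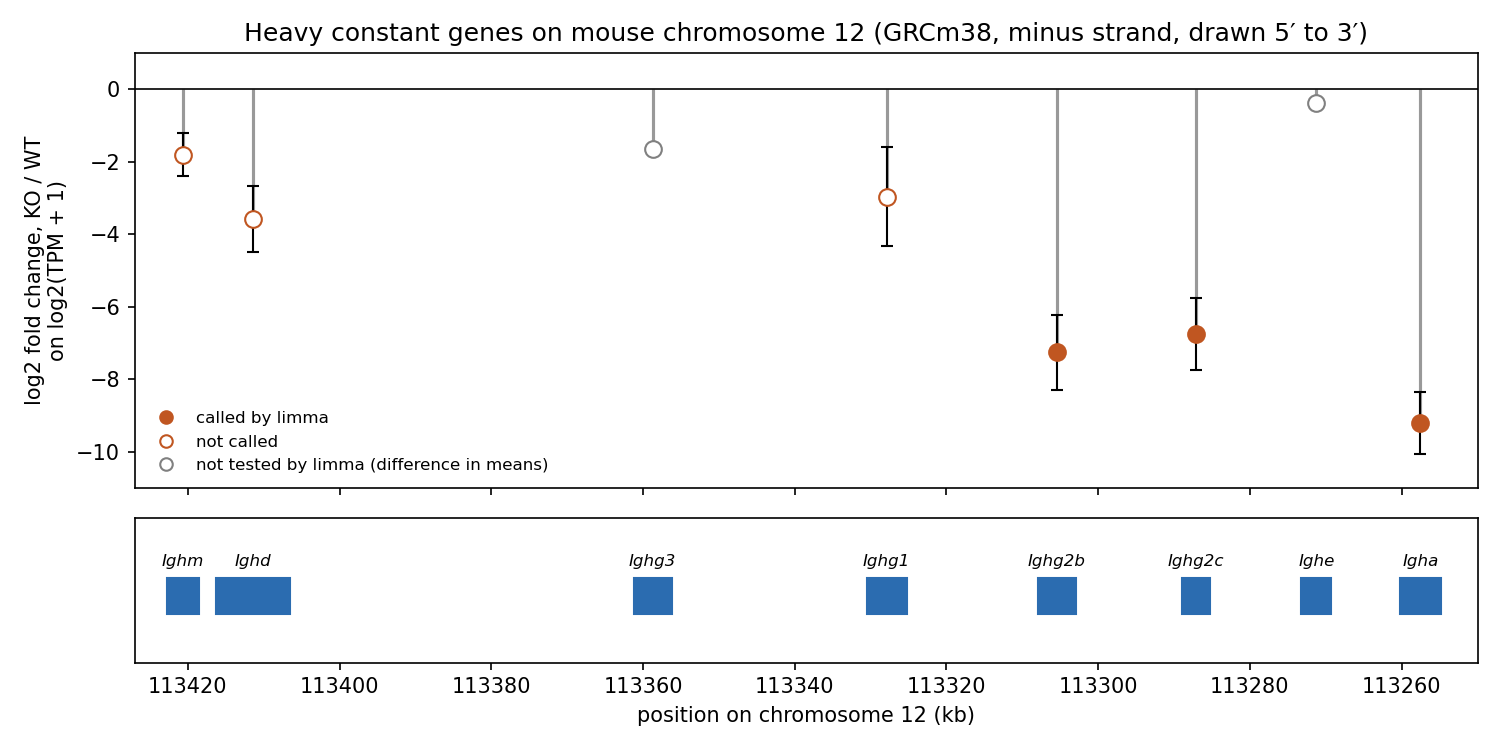
Upper panel, log2 fold change (IL-10 B-KO relative to IL-10 B-WT, on log2(TPM + 1), bars are the standard error) of the 8 heavy constant genes at their position on chromosome 12; lower panel, gene bodies in kb, drawn 5′ to 3′. Filled points are called by limma (Ighg2b, Ighg2c and Igha), open orange points are not called (Ighm, Ighd and Ighg1), and grey points (Ighg3 and Ighe) are differences in means of genes below the filter.

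Each heavy constant gene is annotated with a secreted and a membrane transcript, which end at different exons, and TPM per gene does not separate them. Of the 8 secreted forms, 2 (Ighm and Igha) end in a tail with a cysteine codon next to the last codon, the residue through which IgM and IgA bind J chain. The last 60 coding bases of the secreted transcript, stop codon included, show this tail in the gene most abundant in IL-10 B-KO lungs and in the gene with the largest fall, beside the tails of the called IgG genes, which lack it. They were read from the GENCODE M21 transcripts on GRCm38, minus strand, at chr12:113420867-113420926 for Ighm, chr12:113258768-113258827 for Igha, chr12:113306389-113306448 for Ighg2b and chr12:113287389-113287448 for Ighg2c. The cysteine codon is in capitals.
Ighm: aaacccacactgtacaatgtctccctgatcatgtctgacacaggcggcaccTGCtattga
Igha: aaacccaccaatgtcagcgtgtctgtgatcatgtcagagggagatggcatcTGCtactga
Ighg2b: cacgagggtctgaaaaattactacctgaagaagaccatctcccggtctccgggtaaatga
Ighg2c: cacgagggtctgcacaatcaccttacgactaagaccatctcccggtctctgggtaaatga

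The IgG genes resemble each other enough for reads to be shared. Over the coding part of the secreted transcripts, the 6 pairs of IgG genes were 75.0% to 86.2% identical, and the 22 other pairs of heavy constant genes 46.2% to 56.4%. Ighg2b and Ighg2c were the closest pair. Of the stretches of 31 bases in the transcripts of each gene, 85.0% in Ighg2c, 90.7% in Ighg2b, 96.4% in Ighg3 and 98.3% in Ighg1 occurred in no other gene's transcripts, against 99.7% or more in Ighm, Ighd, Ighe, Igha and Jchain. The split of reads between Ighg2b and Ighg2c is therefore less certain than the level of the other classes, and a small part of a low IgG value may belong to another subclass. The hinge exon, which sets how far the arms of an IgG can move, shows how this closest pair differs (exon 2, minus strand, GRCm38, chr12:113307261-113307326 in Ighg2b and chr12:113288263-113288325 in Ighg2c). Bases without a match in the other gene are in capitals, 14 of 66 in Ighg2b and 11 of 63 in Ighg2c.
Ighg2b: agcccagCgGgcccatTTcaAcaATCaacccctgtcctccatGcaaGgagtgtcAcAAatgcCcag
Ighg2c: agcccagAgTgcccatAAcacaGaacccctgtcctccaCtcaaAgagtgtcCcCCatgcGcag

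Other genes of antibody production were described by lists, each read beside the median log2 fold change of 0.10 over all genes tested, of which 12.5% reached an unadjusted p of 0.05 in limma (5.71% with a negative and 6.83% with a positive log2 fold change). Of the 4 light chain constant genes, 3 were tested, 3 reached an unadjusted p of 0.05 and 2 (Igkc and Iglc2) were called lower, with a median log2 fold change of -4.77, or -4.36 with 1 of 3 called without IL-10 B-WT replicate 2. Igkc, the kappa constant gene and the most abundant of them, was at 713.4 TPM at the lowest, 3651 TPM at the median and 30371 TPM at the highest of the IL-10 B-WT lungs, against 1.12, 1.90 and 216.7 TPM for the IL-10 B-KO lungs. The groups did not overlap, with replicate 2 highest among IL-10 B-WT and replicates 2 and 6 highest among IL-10 B-KO lungs (log2 fold change -8.55, SE 1.28, limma adjusted p = 0.0125). Of 15 B cell genes, all tested, 1 (Cd79a) was called lower and 11 reached an unadjusted p of 0.05, each with a negative log2 fold change, and the median was -1.49, or -0.91 without IL-10 B-WT replicate 2. The summed B cell genes were 97.9 to 1372 TPM among IL-10 B-WT and 71.1 to 144.7 TPM among IL-10 B-KO lungs and overlapped. Their most abundant gene was Cd72, which was 7.0 to 117.4 TPM among IL-10 B-WT and 25.8 to 96.2 TPM among IL-10 B-KO lungs.

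Of 15 plasma cell genes, 13 were tested, 5 reached an unadjusted p of 0.05 (4 lower and 1 higher) and 1 was called lower, Mzb1, a chaperone for antibody assembly in the endoplasmic reticulum. The 1 higher was Sdc1 (log2 fold change 0.83, limma adjusted p = 0.351). Sdc1 was at 26.0 to 153.0 TPM among IL-10 B-WT and 87.6 to 166.1 TPM among IL-10 B-KO lungs. Mzb1 was at 6.42 TPM at the lowest, 22.5 TPM at the median and 148.9 TPM at the highest in IL-10 B-WT lungs and at 0.51, 0.775 and 3.68 TPM among IL-10 B-KO lungs. The groups did not overlap, and the log2 fold change was -3.57 (SE 0.58, limma adjusted p = 0.0195). The list had a median of -0.04, and 0.08 with 2 of 13 called without IL-10 B-WT replicate 2. Its most abundant gene was Xbp1, a secretory regulator used by many cell types, and its summed level was 281.4 to 1080.0 TPM among IL-10 B-WT and 421.1 to 673.1 TPM among IL-10 B-KO lungs. Derl3, a component of protein quality control, and Tnfrsf17, the survival receptor of plasma cells, did not overlap between the groups either, at 5.68 to 48.0 against 0.99 to 3.16 TPM for Derl3 (limma adjusted p = 0.103) and 0.48 to 7.45 against 0 to 0.27 TPM for Tnfrsf17, which was below the filter. Mzb1, Tnfrsf17, Derl3 and Irf4 were the 4 of 15 plasma cell genes without overlap, beside 0.924% of all genes tested, a share that does not cover Tnfrsf17. For Irf4 the gap was small, with 1.69 TPM in the highest IL-10 B-KO and 1.71 TPM in the lowest IL-10 B-WT lung. It was not called (limma adjusted p = 0.341). The part of plasma cell number in the fall of Igha, Jchain and Mzb1 was not tested.

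The levels of the class switch machinery overlapped, with sums of 53.4 to 167.2 TPM among IL-10 B-WT and 113.7 to 162.6 TPM among IL-10 B-KO lungs. Of 19 listed genes, 18 were matched by symbol (H2afx was not) and 17 were tested. In limma 0 were called and 1 reached an unadjusted p of 0.05 (Exo1), and the median log2 fold change was 0.20, or 0.32 without IL-10 B-WT replicate 2. By the median, the most abundant gene of the list was Apex1, a repair nuclease at work in every cell, among IL-10 B-WT lungs (16.6 TPM) and Mad2l2, a DNA repair factor, among IL-10 B-KO lungs (17.8 TPM).

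Of 13 genes for antibody receptors and transport, 11 were tested, 0 were called in limma and 6 reached an unadjusted p of 0.05, with a median log2 fold change of 0.78, or 1.11 without IL-10 B-WT replicate 2. Of these 6, Fcmr had a negative log2 fold change and the 5 others, Fcer1g, Fcgr1, Fcgr2b, Fcgr3 and Fcgr4, a positive log2 fold change. These 5 were highest among IL-10 B-WT lungs in replicate 1 and lowest among IL-10 B-KO lungs in replicate 2, and the genotypes overlapped. The list summed to 2231 TPM in IL-10 B-WT replicate 1 and 219.5 to 835.1 TPM in the other IL-10 B-WT lungs. In IL-10 B-KO replicate 2 it summed to 419.7 TPM, and in the other IL-10 B-KO lungs to 1311 to 2423 TPM. Pigr, the receptor that carries polymeric IgA and IgM across the epithelium, was at 7.22 to 102.6 TPM among IL-10 B-WT and 31.3 to 92.3 TPM among IL-10 B-KO lungs and overlapped (log2 fold change 0.78, limma adjusted p = 0.551). Fcmr, the receptor for IgM that B cells carry, was at 10.4 TPM at the lowest and 128.9 TPM at the highest in IL-10 B-WT lungs. In IL-10 B-KO replicates 1 to 6 it was at 0.08, 14.4, 1, 0.21, 0 and 6.16 TPM, high in the same replicates 2 and 6 as Ighd (log2 fold change -3.07, limma adjusted p = 0.107). Fcer1g, the signalling chain of several Fc receptors and the most abundant gene of the list, had a log2 fold change of 1.54 that did not pass (limma adjusted p = 0.342).

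Of 15 survival and switch cytokines and their receptors, 8 were tested, 0 were called in limma and 2 reached an unadjusted p of 0.05 (1 lower and 1 higher), with a median of 0.22, or 0.31 without IL-10 B-WT replicate 2. The survival factor Tnfsf13b (BAFF) was at 5.09 to 25.0 TPM among IL-10 B-WT and 5.44 to 27.5 TPM among IL-10 B-KO lungs, and its receptor on B cells, Tnfrsf13c, had a log2 fold change of -2.05 (limma adjusted p = 0.295). Tgfb1, which directs switching to IgA and was the most abundant gene of the list, was at 62.3 to 149.7 and 79.4 to 137.7 TPM. Ccr10, a homing receptor of IgA plasma cells, was at 0.58 to 5.44 TPM among IL-10 B-WT and 0.17 to 0.52 TPM among IL-10 B-KO lungs without overlap, but below the filter.

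The lists for other tissues bear on what each lung sample held. Of 12 T cell genes, all tested, 0 were called in limma and 0 reached an unadjusted p of 0.05, with a median log2 fold change of -0.04, or 0.22 without IL-10 B-WT replicate 2. Of 10 genes of thymus and lymphoid tissue, 6 were tested, 0 were called and 1 reached an unadjusted p of 0.05, with a median of -0.31, or -0.0002 without IL-10 B-WT replicate 2. Rag1 and Rag2 were at 0.04 TPM or less in all 12 lungs. The lymphoid chemokine Ccl19 was at 141.3 TPM in IL-10 B-WT replicate 2 and at 0.91 to 9.47 TPM in the other lungs, and Cr2, a receptor of mature B cells and follicular dendritic cells, was at 29.1 TPM in that lung and 2.42 TPM or less elsewhere. Ccr7 (36.2 TPM) and Ltb (171.7 TPM) were also highest in IL-10 B-WT replicate 2, but Cxcl13 and Ccl21a were not. Cxcl13 was at 115.7 TPM in that lung and at 120.4 TPM in IL-10 B-KO replicate 5. Ccl21a, the most abundant gene of the list, was at 258.9 TPM in that lung and at 353.4 TPM in IL-10 B-KO replicate 4. IL-10 B-WT replicate 2 had the highest level of all 9 antibody genes, and the part of lymphoid tissue in this was not tested. Of 9 lung genes, all tested, 0 were called in limma and 2 reached an unadjusted p of 0.05, both higher, with a median of -0.11 (-0.08 without IL-10 B-WT replicate 2), and none was at 0 in any library. The lung genes summed to 31170 to 103940 TPM (median 63628) among IL-10 B-WT and 23426 to 113147 TPM (median 32862) among IL-10 B-KO lungs. Their most abundant gene, Scgb1a1 of airway club cells, had a median of 45585 TPM among IL-10 B-WT and 17535 TPM among IL-10 B-KO lungs. IL-10 B-KO replicates 3, 4, 5 and 6 lay under all IL-10 B-WT lungs and replicate 2 lay above them, and the log2 fold change of -1.12 did not pass (limma adjusted p = 0.434). The part of airway content in the antibody results was not tested.

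Genes with the pattern most like Igha and Ighm were sought among the tested genes, leaving out the immunoglobulin genes and Jchain. The measure was the smallest mean absolute difference in centred log2(TPM + 1) over the 6 IL-10 B-WT lungs. For Igha the nearest of these genes were Colq (0.31), Mzb1 (0.51) and Gm4956 (0.57), where Igha itself had an SD of 1.66 over these lungs. For Ighm they were Jakmip1 (0.15), Cd83 (0.17) and Tnfrsf13b (0.17), where Ighm had an SD of 1.34. Between the genotypes, Mzb1 alone of the 6 was called. Colq had a log2 fold change of -1.78 (limma adjusted p = 0.180) and Gm4956 of -1.53 (limma adjusted p = 0.279), while Jakmip1, Cd83 and Tnfrsf13b had -0.67, -0.56 and 0.10 (limma adjusted p = 0.542, 0.638 and 0.931).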

How the data were processed

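Total RNA from 12 lungs, 6 of each genotype, was sequenced. The authors deposited TPM per gene, 1 column per library without pooling; their processing notes name fastp, HISAT, RSEM and GRCm38.p5 without versions or roles. TPM keep no depth, so that no count model was fitted and precision rests on the spread between lungs. Columns were matched to samples by name. No pair of libraries had identical values.

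Limma 3.58.1 in R 4.3.3 (lmFit, eBayes with a trend, genotype as the only term) was run on log2(TPM + 1) and first tested on simulated data. Exact permutation tests, shares and lists used Python 3.11.15, NumPy 2.4.6, pandas 2.3.3 and SciPy 1.17.1; figures used matplotlib 3.10.9 and alignments edlib 1.3.9.post1. Coordinates and transcripts came from GENCODE M21. The genes named were the 9 genes, list genes where a list is described, Il10, Cd79a and the 3 nearest patterns to Igha and Ighm.

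The 9 genes and the lists were chosen with earlier results of these data known. Other settings tried were 0.1 as the pseudocount, all genes kept, a stricter filter (mean TPM of 5 or more), TPM rescaled after removal of immunoglobulin genes, values centred on their median or quantile normalized, libraries weighted by array quality, replicate numbers as a block, calls with no minimum fold change, shares that leave out Ighd, and each library left out in turn. The lists were also run without IL-10 B-WT replicate 2, chosen after seeing the data.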

Additional observations from a re-analysis of the deposited data

Results flagged for a closer look

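In each genotype, the highest or lowest lung of each of the 9 genes was compared with its nearest neighbour, as the gap between them divided by the range of log2(TPM + 1) over the 6 lungs. In 7 of 18 groups the gap was large enough to set the highest lung apart from the rest, where chance does so in about 1 in 20 groups of values that are not at a floor. That rate does not apply to Ighe, which makes up 2 of the 7 and was at or near 0 TPM in the other lungs. Nor can it be relied on for Ighg2b and Ighg2c in IL-10 B-KO lungs. Outside replicate 6 these genes were at 1.04 and 0.34 TPM or less, close to the floor. In IL-10 B-WT lungs this lung was replicate 2 each time, with a gap of 0.783 of the range for Ighd, 0.704 for Ighg1, 0.700 for Ighg2b and 0.936 for Ighe. In IL-10 B-KO lungs it was replicate 6 each time, with 0.633 for Ighg2b, 0.730 for Ighg2c and 1 for Ighe, whose other 5 lungs were listed at 0. These values in IL-10 B-KO replicate 6 were 5.21 TPM or less. Genes of the same locus are measured in the same lungs, so that these are not independent.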

How the results depend on the processing

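With each library left out in turn, Igha (log2 fold change -9.77 to -8.75, limma adjusted p at most 0.00463), Jchain (-8.25 to -7.04, at most 0.00740), Ighg2b (-7.83 to -6.19, at most 0.0436) and Ighg2c (-7.30 to -5.91, at most 0.0436) were called each time. They were called under the other alternatives too, except that with no filter on low TPM and p-values adjusted over 31629 genes, Ighg2b (-7.26, limma adjusted p = 0.0628) and Ighg2c (-6.76, limma adjusted p = 0.0687) were not, which left 2 of the 9 genes. Ighm and Ighg1 were called under 0 alternatives, and all 9 genes kept a negative difference under each alternative run. Leaving out each library gave 4 to 5 genes called, the 5th being Ighd without IL-10 B-KO replicate 2; its log2 fold change ranged from -4.25 to -3.07 (limma adjusted p = 0.0298 to 0.306) and was also called with array quality weights (-3.76, limma adjusted p = 0.0333). For Ighg3 the difference ranged from -1.92 to -1.12 with each library left out. Its exact permutation p was above 0.05 without IL-10 B-KO replicate 1, 3, 4 or 5. For Ighg3 and Ighe, below the filter, quantile normalization, array weights and a mean TPM of at least 5 were not run.

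The log2 ratio of Igha to Ighm differed by -8.01 to -7.14 with each library left out. With each IL-10 B-WT lung left out, the median share of Igha in these lungs ran from 72.2% to 81.7%, and that of Ighm from 2.68% to 2.74%. The small median shares moved more, Ighg3 from 0.0521% to between 0.0258% and 0.0784%, and Ighe from 0.00214% to between 0.00118% and 0.00309%. When Ighd was not counted, the median share of Igha was 77.9%, beside 76.9% with Ighd. The shares of IL-10 B-KO lungs were not run.

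The number of genes called over all genes was 75, and 6 with no filter, 39 with quantile normalization, 36 with median centring and 318 with array quality weights (81 higher). It was 576 (344 higher) without IL-10 B-WT replicate 1 and 44, 20, 23 and 33 without replicates 3, 4, 5 and 6 of that group, and 17, 20, 15 and 43 without IL-10 B-KO replicates 1, 3, 5 and 6. The cause was not tested. Quantile normalization and median centring moved the median log2 fold change of all genes from 0.10 to 0.01 and -0.01.

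With the replicate block, 45 genes were called over all genes and 5 of the 9 genes, Ighd among them (-3.58, limma adjusted p = 0.0391), and the difference of Ighg3 (-1.65) had an exact p of 0.0625 over pairs. The numbers are not stated to pair mice: deviations of same-numbered lungs correlated at -0.29 to 0.05 over genes, and 0 of 6 IL-10 B-WT lungs correlated best with their own number.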
